A study of Drosophila melanogaster with 72 samples.

Results

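Small nucleolar RNAs (snoRNAs) and small Cajal body RNAs (scaRNAs) of Drosophila melanogaster were followed through the embryos and larvae of a study on zygotic genome activation and IntS11, which is the endonuclease of the Integrator complex. The members were all rows of the gene tables whose identifier starts with snoRNA: or scaRNA:, which gave 288 of 16680 rows. Of these, 33 rows reached an expected count of 10 or more in at least 1 of the 72 libraries and are described here. Gene names are given without the snoRNA: or scaRNA: prefix where the kind is stated.

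RNA-seq libraries from total RNA depleted of rRNA came from 6 experiments, with 36 groups of 2 libraries each. Wild type larvae and larvae labelled zygotic mutant were taken at 24, 48 and 72 h after egg laying. Wild type embryos were compared with mutant embryos labelled IntS11 mislocalized, with mutant embryos labelled IntS9 mislocalized and with an IntS11 knockdown, each in its own experiment. Those embryos were collected at 0 to 0.5, 1 to 1.5 and 2.5 to 3 h. Embryos given alpha-amanitin, an inhibitor of RNA polymerase II, were compared with their control embryos at 1 to 1.5 and 2.5 to 3 h, and a rescue experiment at the same windows held wild type, IntS11 mislocalized, and Flag-tagged IntS11 as the wild type protein (FlagIntS11WT) or with the substitution E203Q (FlagIntS11E203Q), which in human cells removes the nuclease activity of INTS11. The labels do not name the gene of the zygotic mutant, the strain, the alleles, the driver or the knockdown line, the genetic background of the Flag groups, the dose of alpha-amanitin or the number of animals in a library. They do not say either whether the 2 libraries of a group came from separate collections, so every p-value measures only the spread between these libraries, which may be technical.

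Most snoRNAs guide the modification of ribosomal RNA: box C/D snoRNAs direct ribose methylation and box H/ACA snoRNAs direct pseudouridylation, each in a particle with 4 core proteins. U3 is a box C/D snoRNA that instead takes part in the cleavages that release the small-subunit rRNA, and scaRNAs guide the same modifications in the spliceosomal snRNAs. In flies most of these RNAs are cut out of introns of host genes, and the egg is stocked with ribosomes and small RNAs before its own genome is transcribed.

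Whether a row was measured at all followed its length. No row shorter than 100 bases had a count in any library, 0 of 111, and of the 81 rows from 100 to 139 bases 22 had some count and none reached 10. From 140 bases on the share rose: 7 of 56 rows of 140 to 149 bases, 11 of 22 of 150 to 159 bases, 9 of 12 of 160 to 199 bases and 6 of 6 of 200 bases or more reached 10 counts. RSEM, the program behind the deposited counts, gave 247 of the 288 rows an effective length of 0 in every library. All of these are shorter than 150 bases, while mean fragments measured 200 to 237 bases. A count of 0 in such a row therefore sets no upper limit on the level of its RNA. Of the 247 rows 7 still reached 10 counts and are among those described. Of the rows, 186 were at 0 in all 72 libraries and 69 had some count below 10.

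**Figure D1:**
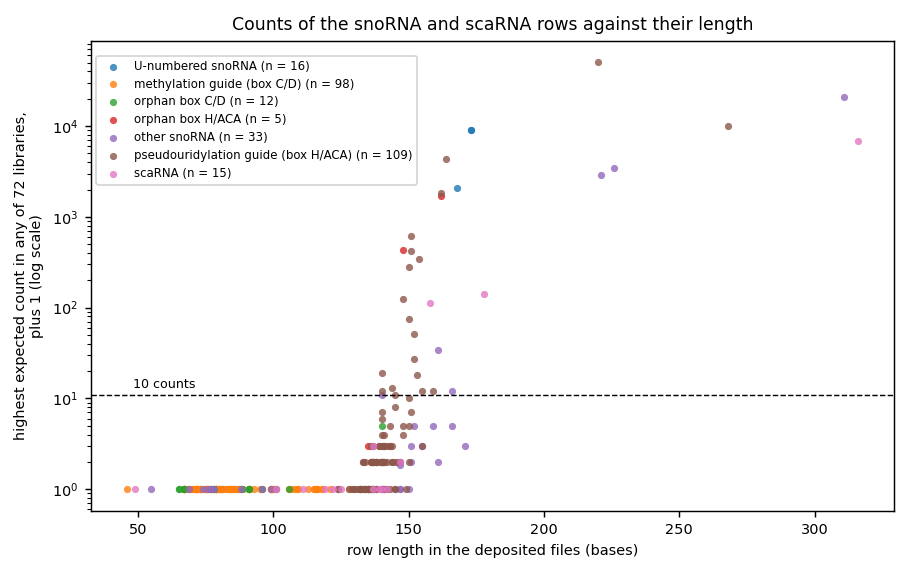
Highest expected count of each of the 288 snoRNA and scaRNA rows over the 72 libraries (vertical axis, count plus 1, log scale) against the length of the row in bases (horizontal axis), coloured by the class of the name, with a dashed line at 10 counts. All rows above the line are 140 bases or longer. All rows shorter than 100 bases are at 0, as are some longer ones.

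The consequence was an uneven view of the family. All 98 rows named for a ribose methylation, the box C/D guides with a median length of 80 bases, were at 0 in every library. Rows named for a pseudouridine, the longer box H/ACA guides, gave 19 of the 33 described rows out of 109. The others were 3 of 15 scaRNAs, 3 of 16 rows with a U number, all of them copies of U3, 2 of 5 orphan box H/ACA rows, which have no known target, 6 of 33 rows with other names and 0 of 12 orphan box C/D rows. The rows just inside the threshold were 229 and Psi28S-1180 with a highest count of 10, and the rows just outside were Psi28S-3385a with 9 and Psi28S-2179 with 7. The described rows held 99.9% of the counts of all 288 rows, and 79.1% lay in Psi28S-291, Psi28S-2566, Tudor-SN-a and MeU5-C46, which are 220, 268, 311 and 316 bases long. These are shares of counts and do not rank the RNAs by abundance. A lower threshold of 5 counts would have described 38 rows, a threshold of 20 counts 24 rows, and 10 counts in both libraries of a group 26 rows.

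The annotation placed 27 of the 33 described rows inside a gene on the same strand (build dm6, positions counted from 1). Psi28S-291 lies at chr3R:11223571-11223790 on the plus strand in RpL3, a ribosomal protein gene, and Psi28S-2648 at chr2L:8042189-8042350 on the minus strand in RpL36A, another one. Tudor-SN-a at chr3L:259970-260280 and Psi28S-2566 at chr3L:18896189-18896456 lie on the minus strand in Tudor-SN and CG3902. CG32479-b and CG32479-a lie at chr3L:890270-890490 and chr3L:891250-891475 on the plus strand in Usp10, a deubiquitinase gene that the tables list as CG32479. The scaRNA MeU5-C46 lies at chr3R:7472907-7473222 on the minus strand in CG1142, PsiU1-6 at chr3R:9713607-9713765 on the plus strand in dmt, and PsiU2-55 at chr2R:12161126-12161303 on the minus strand in Prp8, a core splicing factor gene. The 6 rows without a host were the 3 U3 copies, Or-aca4, Psi18S-176 and Psi28S-3342. U3:54Aa and U3:54Ab, annotated near each other at chr2R:17143521-17143730 and chr2R:17145617-17145826 on opposite strands, had equal counts in all 72 libraries. Their rows have a length of 173 bases in the tables, against annotated intervals of 210 bases, and U3:9B has 168 against 213. The rows of equal counts are 1 measurement in 2 rows, which cannot be assigned to either copy, and they are counted as 2 rows in the counts below. The tables do not separate a finished snoRNA from unspliced host RNA that spans it, and the sources used here do not give whether counting used the strand.

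Library totals ran from 2061575 to 26074431 counts. They were unequal between compared groups in the knockdown experiment, with 2061575 to 2590455 in wild type and 10415095 to 12468983 in knockdown libraries, and in larvae at 48 h, with 19258687 and 17427040 in wild type and 5469172 and 4545049 in the mutant. IntS11 itself was at 4.56 to 15.3 CPM in the knockdown and 76.5 to 107 CPM in its wild type, at 3.06 to 6.78 CPM in the larval mutant and 13.6 to 21.7 CPM in wild type larvae, and at 1945 to 2483 CPM in the Flag groups. CPM are counts scaled to a common library size, here with the trimmed mean of M-values within each experiment. Levels are therefore compared only within an experiment, and only for 1 RNA or 1 fixed sum of RNAs at a time. A sum is weighted to its highest members. The summed level of 5 maternal egg RNAs (osk, bcd, nos, gnu, png) at 2.5 to 3 h was 113 to 171 CPM in wild type and control embryos, 1049 to 1278 CPM in IntS11 or IntS9 mislocalized embryos, 789 and 875 CPM in the knockdown and 2887 and 2929 CPM after alpha-amanitin. In these bulk libraries fewer cells of a type and less RNA per cell cannot be told apart.

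Each comparison was tested over all genes that passed a filter on low counts, which 20 to 26 of the 33 described rows did, depending on the experiment, and 27 in the joint fit. Calls are at an adjusted p under 0.05, by the quasi-likelihood test of edgeR with p-values adjusted over all genes tested after Benjamini and Hochberg, and changes are log2 ratios ± SE. In each comparison the count of rows called is given beside the share of all tested genes called in the same direction. Rows that passed the filter through the group where they were high are among those counted, so the counts describe the rows and support nothing about the family.

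**Figure D2:**
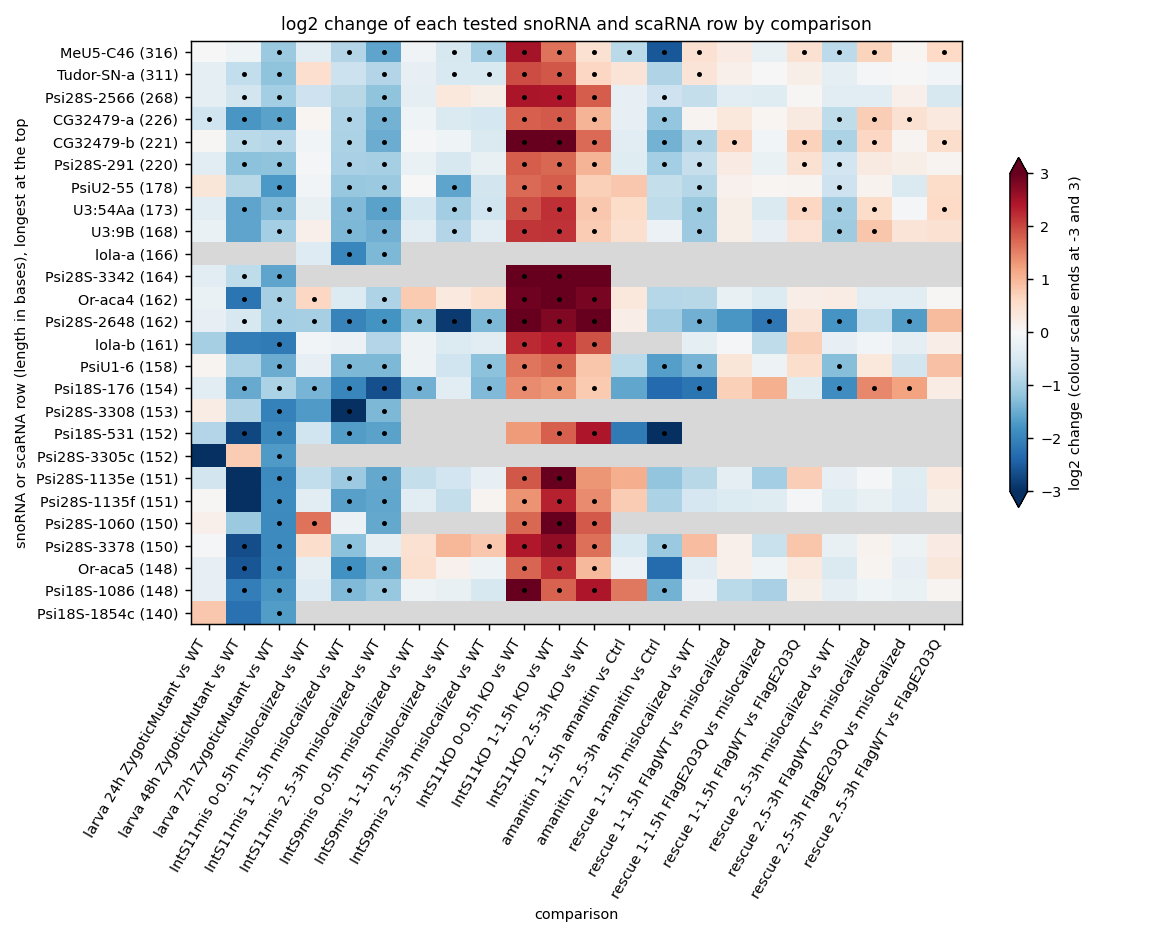
Log2 change of 26 snoRNA and scaRNA rows (vertical) in 22 comparisons of a mutant, knockdown, treated or rescue group (horizontal), blue lower and red higher, with colours ending at -3 and 3, a black dot for a call and grey for a row not tested. U3:54Ab is left out because it equals U3:54Aa, and fitted values against a group with 0 counts are no bounds. The 3 knockdown columns are red throughout, and the columns of larvae at 48 and 72 h and of IntS11 mislocalized embryos at 1 to 1.5 and 2.5 to 3 h are mostly blue.

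In wild type and control embryos the described rows were higher at 2.5 to 3 h than at 1 to 1.5 h wherever they were called, except for 1 row. In the wild type of the IntS11 mislocalization experiment 16 of 24 tested rows rose and none fell (43.5% of all genes were called higher and 37.6% lower), in that of the IntS9 experiment 15 of 20 rose (41.7 and 39.8%), and in that of the knockdown experiment 12 of 23 rose (40.8 and 32.6%). In the alpha-amanitin controls 6 of 20 rose (50.5 and 40.0%), and in the rescue wild type 5 of 20 rose (43.1%) and 1 fell (41.8%). The median log2 change of the rows was 0.72, 0.93, 1.08, 1.54 and 0.25 in that order, against medians of all genes of 0.11, 0.05, 0.17, 0.27 and 0.05. The scaRNA MeU5-C46, which guides a methylation of the U5 snRNA, rose in all 5, by 1.24 ± 0.15, 1.04 ± 0.16, 1.44 ± 0.14, 1.76 ± 0.10 and 1.41 ± 0.14 (edgeR adjusted p = 1.07e-06, 0.000205, 3.59e-08, 1.42e-08 and 8.3e-07), and the libraries of the 2 times did not overlap in any experiment. U3:54Aa rose by 0.78 ± 0.22, 0.73 ± 0.23 and 1.42 ± 0.21 in the first 3 (edgeR adjusted p = 0.00643, 0.0219 and 2.26e-05), and its change in the rescue wild type was -0.10. The 1 row that fell was Or-aca4 in the rescue wild type, at -0.91 ± 0.33 (edgeR adjusted p = 0.0286). There the wild type library 2 of 1 to 1.5 h had fragments of 202 bases against 216 in library 1 and 220 and 225 at 2.5 to 3 h, and with the RSEM effective lengths as an offset the change of Or-aca4 was 0.00. With that offset 11 rows were called in the rescue wild type and 7 in the IntS11 mislocalization wild type. It was fitted on fewer rows, those with an effective length above 0 in every library of the experiment. These counts depended on single libraries, with the ranges given in the last section. Without control library 2 of 2.5 to 3 h many more rows were called in the alpha-amanitin controls. Far fewer were called in the IntS11 mislocalization wild type without library 2 of 1 to 1.5 h. In the IntS9 wild type far fewer were called whichever library was left out.

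In wild type larvae the rows rose late. From 24 to 48 h 8 of 26 rows rose (32.8% of all genes were called higher) and 1 fell (36.2%), and from 48 to 72 h 23 of 26 rose (27.9%) and none fell (23.3%), with medians of 0.46 and 1.42 against -0.03 and 0.03 for all genes. U3:54Aa was at 101 and 92.3 CPM at 48 h and at 399 and 483 CPM at 72 h in wild type, a rise of 2.19 ± 0.32 (edgeR adjusted p = 0.00128). Psi28S-291, a guide for the large-subunit rRNA, was at 899 and 764 CPM at 24 h, 1191 and 1274 CPM at 48 h and 2407 and 2395 CPM at 72 h. Psi28S-3342, which has no host gene, was at 43.3 and 50.8 CPM at 24 h, 81.4 and 88.1 CPM at 48 h and 204 and 211 CPM at 72 h, rising by 0.85 ± 0.09 and 1.29 ± 0.09 (edgeR adjusted p = 1.43e-06 and 2.21e-08). The libraries of successive ages did not overlap for any of these. Psi28S-3305c, in the RNA-binding protein gene Hrb98DE, had 46 counts at 72 h against 2 at 48 h in wild type, a ratio of 20.5 (exact 95% counting interval 5.37 to 175). MeU5-C46 was the row that fell from 24 to 48 h, by 0.38 on the log2 scale (edgeR adjusted p = 0.0222). From 48 to 72 h the share of counts taken by 7SL, the RNA of the signal recognition particle, went from 4.71 and 4.62% to 9.02 and 9.71%, and fragments went from 228 and 234 bases to 222 and 221. Their part in the rise was not tested. With effective lengths as an offset 14 rows were called, of the fewer rows with an effective length above 0 in every larval library.

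In larvae labelled zygotic mutant the rows were lower than in wild type at 48 and 72 h. At 24 h 1 of 26 rows fell (4.42% of all genes were called lower) and none rose (5.55%), with 5 rows at an unadjusted p under 0.05 and with 4 called by DESeq2. At 48 h 15 of 26 fell (13.8%) and none rose (16%), with 9 to 11 called when any 1 library was left out (11 without wild type library 1, 10 without library 2 and 9 without either mutant library), and at 72 h 26 of 26 fell (30.6%) and none rose (26.6%). The medians were -0.25, -1.54 and -1.60, against 0.00, 0.00 and -0.05 for all genes, and the second is -1.17 when rows with 3 or fewer counts in a group are set at their bound. Other RNAs differed between the groups as well. The summed level of 8 larval RNAs (Lsp1alpha, Lsp1beta, Lsp2, Lcp1, Lcp2, Jon65Aiii, Amy-p, Fbp1) was 2146 and 2441 CPM in the mutant against 3692 and 3662 CPM at 48 h, and 2161 and 2239 against 3830 and 3607 CPM at 72 h, with 389 and 388 against 533 and 492 CPM at 24 h. The 5 maternal egg RNAs were at 92.5 and 81.7 against 31.9 and 34.4 CPM at 48 h and at 19.7 and 20.3 against 49.97 and 53.7 CPM at 72 h. The 7SL share was 3.75 and 3.52% against 4.71 and 4.62% at 48 h and 7.72 and 7.96% against 9.02 and 9.71% at 72 h. The part of these values in the fall of the rows was not tested. The row called at 24 h, CG32479-a, was at -0.60 ± 0.14 (edgeR adjusted p = 0.0266), and its call was lost without wild type library 1 or either mutant library.

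At 72 h U3:54Aa was at 399 and 483 CPM in wild type larvae and at 136 and 217 CPM in the mutant, a change of -1.32 ± 0.30 (edgeR adjusted p = 0.00971). At 48 h it was at 101 and 92.3 CPM against 34.8 and 29.7 CPM, a change of -1.58 ± 0.40 (edgeR adjusted p = 0.0275). At neither age did the libraries overlap, but leaving out any 1 of the 4 libraries of 48 h ended that call (adjusted p from 0.073 to 0.17), as leaving out wild type library 2 did at 72 h (-1.18, adjusted p = 0.051). Psi28S-291 was at 1191 and 1274 CPM in wild type and 543 and 515 CPM in the mutant at 48 h, and at 2407 and 2395 against 949 and 1118 CPM at 72 h. It fell by 1.22 on the log2 scale at both ages (SE 0.13, edgeR adjusted p = 0.000386 and 0.000107), and both calls were kept without any 1 library. In the mutant its level at 72 h lay within the range of the wild type at 24 and 48 h.

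The 3 scaRNAs were not called at 48 h and fell at 72 h. MeU5-C46 was at 184 and 173 CPM in wild type larvae and 159 and 165 CPM in the mutant at 48 h, a change of -0.14 that was not called. At 72 h it was at 235 and 288 against 136 and 107 CPM, and fell by 1.11 ± 0.12 on the log2 scale (edgeR adjusted p = 6.53e-05). PsiU1-6 and PsiU2-55, which guide pseudouridines of the U1 and U2 snRNAs, were at -0.92 (edgeR adjusted p = 0.0533) and -0.84 at 48 h and fell at 72 h, at -1.48 ± 0.20 (1.72e-06) and -1.73 ± 0.25 (5.01e-06). Among the other rows the fall at 72 h ran from -0.86 for CG32479-b to -2.12 for lola-b. Psi28S-3342 was at 204 and 211 CPM in wild type and 67.4 and 70.7 CPM in the mutant at 72 h, a change of -1.59 ± 0.09 (edgeR adjusted p = 1.38e-09).

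The change in the mutant was tested against that at 24 h. At 48 h it was lower than at 24 h for 7 of 26 rows (5.71% of all genes) and at 72 h for 16 of 26 (23.1%). Psi28S-291 differed by -0.90 ± 0.19 and -0.90 ± 0.18 (edgeR adjusted p = 0.0191 and 0.00549), MeU5-C46 by -0.12 ± 0.18 and -1.09 ± 0.17 (0.751 and 0.000932), and U3:54Aa by -1.27 ± 0.52 and -1.01 ± 0.44 (0.187 and 0.116), which was not called. Leaving out 1 library gave 2 to 8 called rows (2 without mutant library 2 of 48 h) and 9 to 18 (9 without mutant library 1 of 24 h). In the shallow mutant libraries of 48 h 8 of the 26 rows had 3 or fewer counts, and Psi28S-1135e with 0 counts against 54, at least 5.02-fold lower, was not called (edgeR adjusted p = 0.285). Fitting only the 15 rows with an effective length above 0, with that length as an offset, 8 rows fell at 48 h and 15 at 72 h.

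**Figure D3:**
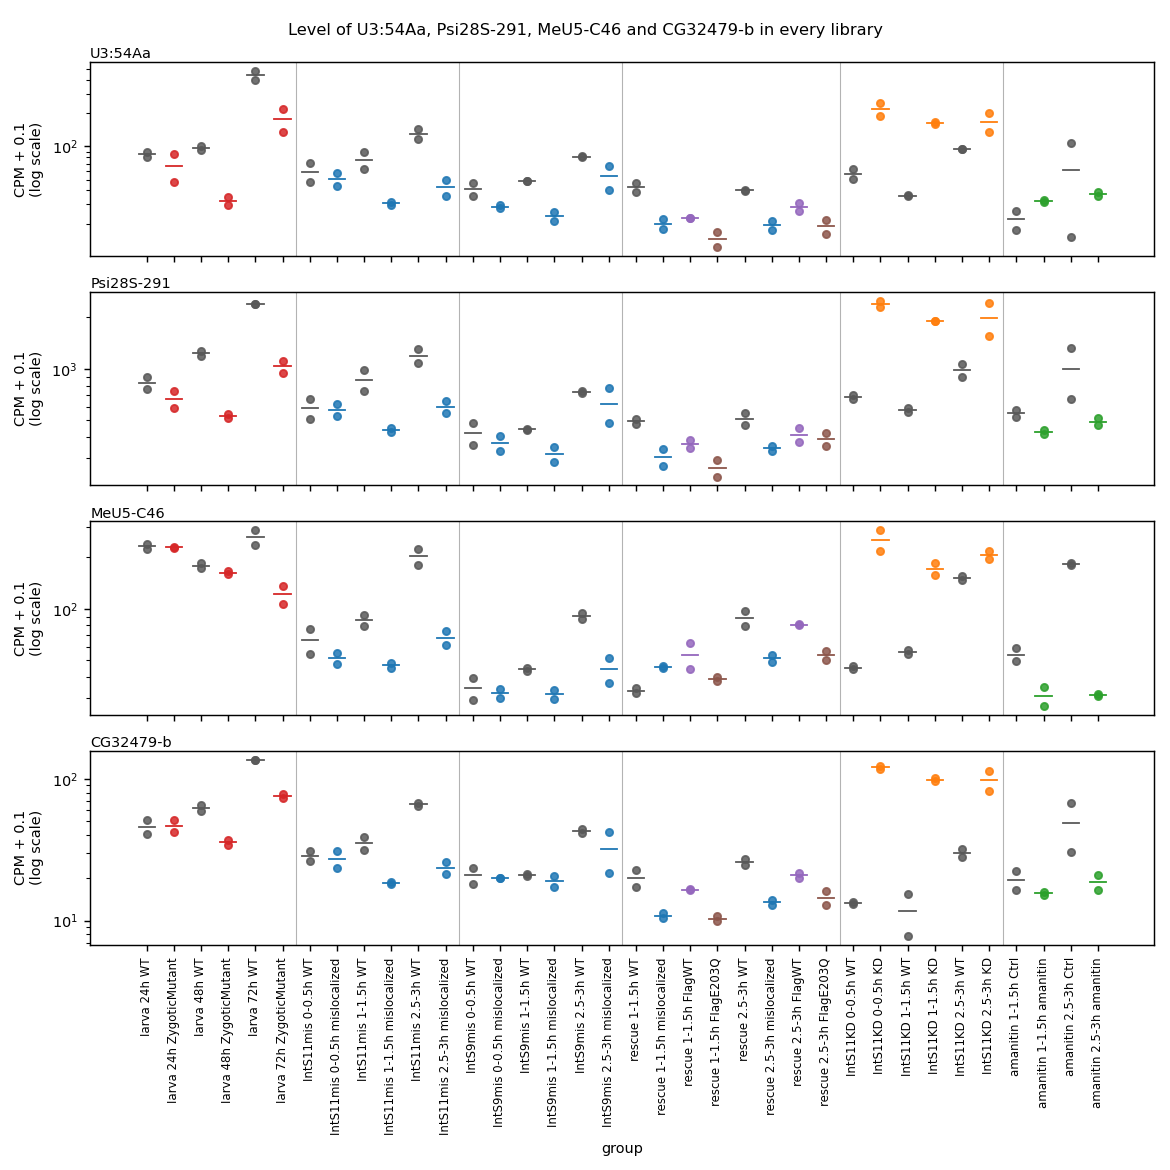
Level of U3:54Aa, Psi28S-291, MeU5-C46 and CG32479-b in every library (CPM plus 0.1, log axis), by group and experiment, with points for libraries and a line for the mean of each group. Knockdown points lie above those of their wild type at all 3 times, and the wild type larval points of 72 h lie above those of the mutant.

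When IntS11 was mislocalized, the rows were lower from 1 to 1.5 h on. At 0 to 0.5 h 2 of 24 rows rose (16.8% of all genes were called higher) and 2 fell (14.8%), with 7 at an unadjusted p under 0.05. At 1 to 1.5 h 19 of 24 fell (24.6%) and none rose (22.7%), and at 2.5 to 3 h 22 of 24 fell (53.2%) and none rose (30.1%). The medians were -0.23, -1.28 and -1.43, against 0.00, -0.03 and -0.38 for all genes. The median of all genes at 2.5 to 3 h shifted by 0.36 with scaling to total counts, with 20 rows called lower and a median of -1.08. The 7SL share was 5.66 and 6.77% in mislocalized against 5.97 and 4.68% in wild type embryos at 0 to 0.5 h. It was 4.69 and 4.75% against 7.78 and 5.995% at 1 to 1.5 h. At 2.5 to 3 h it was 7.35 and 6.28% against 9.95 and 8.09%. Fragments measured 220 and 223 against 217 and 214 bases at 2.5 to 3 h. The part of these values in the fall of the rows was not tested. Counts with the effective-length offset are given in the last section. Fragments of 205 bases in mutant library 2 of 0 to 0.5 h stood against 220 to 223 in the other 3 libraries, and the count of 4 calls there ranged from 2 to 4, with 2 without wild type library 1 or mislocalized library 2.

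U3:54Aa was at 71.2 and 47.2 CPM in wild type and 43.9 and 57.8 CPM in IntS11 mislocalized embryos at 0 to 0.5 h, where the groups overlapped. At 1 to 1.5 h it was at 88.7 and 62.5 against 29.3 and 31.5 CPM, and at 2.5 to 3 h at 143 and 116 against 50.0 and 35.5 CPM. The groups were apart at both later times, with changes of -1.32 ± 0.24 and -1.60 ± 0.23 (edgeR adjusted p = 0.000805 and 3.33e-05). Psi28S-291 was at 988 and 740 against 427 and 453 CPM at 1 to 1.5 h and at 1302 and 1081 against 648 and 550 CPM at 2.5 to 3 h, changes of -0.97 ± 0.15 and -0.99 ± 0.15 (edgeR adjusted p = 7.44e-05 and 1.26e-05). MeU5-C46 was at 91.8 and 79.4 against 48.3 and 44.9 CPM and at 225 and 180 against 73.9 and 61.0 CPM, and changed by -0.88 ± 0.15 and -1.59 ± 0.15 (edgeR adjusted p = 0.000256 and 5.72e-08). These 6 calls were kept without any 1 library. The other scaRNAs fell too, PsiU1-6 by 1.34 on the log2 scale at both times (SE 0.43 and 0.34, edgeR adjusted p = 0.0187 and 0.00184) and PsiU2-55 by 1.14 and 1.10 (0.00445 and 0.00103). The call of PsiU1-6 at 1 to 1.5 h was lost without wild type library 1 (-0.57, adjusted p = 0.41) or either mutant library, and that of PsiU2-55 without wild type library 1 (-0.90, adjusted p = 0.063).

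Psi18S-176, a small-subunit rRNA guide row without a host gene at chr2R:23839911-23840064, was the row lower at all 3 times in a way that did not hang on a single library. It was at 6.08 and 4.09 CPM in wild type against 2.59 and 1.19 CPM at 0 to 0.5 h, at 5.57 and 6.77 against 1.65 and 1.48 CPM at 1 to 1.5 h and at 16.4 and 14.2 against 2.38 and 2.49 CPM at 2.5 to 3 h. The groups did not overlap at any time, and it fell by 1.396, 1.97 and 2.64 on the log2 scale (SE 0.29, 0.29 and 0.23, edgeR adjusted p = 0.0018, 4.98e-05 and 2.95e-08). Psi28S-2648 was also lower at all 3 times, at -0.999, -2.00 ± 0.31 and -1.80 ± 0.29 (edgeR adjusted p = 0.0335, 7.82e-05 and 2.66e-05), but without wild type library 1 its value at 0 to 0.5 h was -0.53 (adjusted p = 0.38). The 2 rises at 0 to 0.5 h were Or-aca4, at 0.63 ± 0.17 (edgeR adjusted p = 0.0117), and Psi28S-1060, at 1.64 ± 0.60 (0.0475). The first was 0.19 (adjusted p = 0.39) with the effective-length offset and was lost without 3 of the 4 libraries, and so was the second. Both fell at 2.5 to 3 h, at -0.94 ± 0.16 and -1.54. Psi28S-3308, in the splicing factor gene Sf3b3 (CG13900 in the tables), also fell at 1 to 1.5 h, with 1 count against 21, a ratio of 23.6 (exact 95% counting interval 3.80 to 978). Of the 21 wild type counts 17 were in library 1, and without that library it was not called (-2.92, adjusted p = 0.073).

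The change under IntS11 mislocalization was lower at 1 to 1.5 h than at 0 to 0.5 h for 10 of 24 rows (7.22% of all genes) and at 2.5 to 3 h than at 0 to 0.5 h for 14 of 24 (42.3%). Psi28S-291 differed by -0.94 ± 0.21 and -0.96 ± 0.21 (edgeR adjusted p = 0.00844 and 0.000769), U3:54Aa by -1.09 ± 0.33 and -1.38 ± 0.32 (0.0467 and 0.00263), and MeU5-C46 by -0.54 ± 0.22 and -1.25 ± 0.21 (0.106 and 9.14e-05). Psi18S-176 did not differ by the test at 1 to 1.5 h (-0.57 ± 0.43, adjusted p = 0.394). Without wild type library 1 of 1 to 1.5 h or wild type library 2 of 0 to 0.5 h 1 row was called in place of 10, and the count ranged up to 12, while the 14 ranged from 12 to 16. With the effective-length offset, fitted on fewer rows, they were 3 and 6.

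When IntS9, the partner of IntS11 in the cleavage module of Integrator, was mislocalized, fewer rows were called. At 0 to 0.5 h 2 of 20 fell (26.5% of all genes were called lower) and none rose (26.0%), at 1 to 1.5 h 7 fell (28.2%) and none rose (31.3%), and at 2.5 to 3 h 7 fell (43.0%) and 1 rose (40.4%). The medians were -0.17, -0.47 and -0.46. U3:54Aa was at 48.7 and 48.5 CPM in wild type against 21.1 and 25.6 CPM at 1 to 1.5 h, a fall of 1.05 on the log2 scale (SE 0.25, edgeR adjusted p = 0.0105) that was at -0.93 (adjusted p = 0.053) without mislocalized library 1. The scaRNA MeU5-C46 was at -1.05 ± 0.16 at 2.5 to 3 h (edgeR adjusted p = 0.000198). Psi28S-2648 was at 2.38 and 1.84 CPM against 0.231 and 0.321 CPM at 1 to 1.5 h and at 2.86 and 3.19 against 1.20 and 1.17 CPM at 2.5 to 3 h. It fell by 2.88 ± 0.39 and 1.35 ± 0.28 on the log2 scale (edgeR adjusted p = 2.5e-06 and 0.000201), with groups apart and both calls kept without any 1 library. Psi28S-291, at -0.19, -0.47 and -0.23, was not called at any time. Without 1 library the calls numbered 0 to 4, 2 to 6 and 5 to 13. Mislocalized library 1 of 2.5 to 3 h had fragments of 222 bases against 237 in library 2, and without it 13 rows were called. The IntS9 and IntS11 effects were not tested against each other.

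In the IntS11 knockdown the rows were higher at all 3 times. At 0 to 0.5 h 22 of 23 tested rows rose (39.5% of all genes were called higher) and none fell (29.6%), at 1 to 1.5 h 23 of 23 rose (41.7%) and none fell (31.0%), and at 2.5 to 3 h 19 of 23 rose (39.7%) and none fell (36.0%). The medians were 1.94, 2.20 and 1.33, or 1.94, 2.17 and 1.03 with rows of 3 or fewer counts in a group set at their bound, against 0.25, 0.26 and 0.07 for all genes. The summed level of the described rows was 5589 and 4802 CPM in knockdown embryos against 1285 and 1258 CPM in wild type at 0 to 0.5 h, 3941 and 3996 against 986 and 1060 CPM at 1 to 1.5 h, and 3431 and 4922 against 2034 and 1884 CPM at 2.5 to 3 h. The groups did not overlap at any time. These sums rest on the trimmed mean of M-values, and no sum with total-count scaling is given. They are also weighted to Psi28S-291. At 0 to 0.5 h the group means were 5196 CPM in the knockdown and 1272 CPM in wild type with that row. Without it they were 2791 against 587 CPM, then 2058 against 448 CPM at 1 to 1.5 h and 2186 against 978 CPM at 2.5 to 3 h.

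Total-count scaling shifted the all-gene median in the knockdown by -0.62, -0.44 and -0.35 and lowered the share of called genes that were higher from 57.1 to 35.3%, from 57.4 to 41.5% and from 52.4 to 40.0%. The rows then stood at medians of 1.304, 1.74 and 0.96, with 16, 19 and 11 called higher and none lower. The count at 2.5 to 3 h was also 12 with RLE size factors and 10 with DESeq2, and 12 to 21 without 1 library, with 13 without knockdown library 2 or wild type library 1 and 12 without wild type library 2. The knockdown libraries differed from their wild type in other respects. The 8 larval RNAs summed to 780 and 518, 303 and 277, and 1090 and 1337 CPM in the knockdown at the 3 times, with none of the 8 at 0, against 2.05 and 2.55, 0.643 and 0.341, and 22.1 and 21.1 CPM in wild type, with 6, 6 and 3 of the 8 at 0. The 7SL RNA took 15.7 to 25.5% of the counts against 4.14 to 7.02%, and fragments measured 209 to 220 bases against 200 to 206. The part of these values in the rise of the rows was not tested, and with effective lengths as an offset 16 of 16, 16 of 16 and 15 of 16 rows rose.

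Among the U3 rows U3:54Aa was at 247 and 189 CPM in knockdown embryos against 63.0 and 50.3 CPM at 0 to 0.5 h, at 167 and 161 against 36.0 and 35.5 CPM at 1 to 1.5 h and at 135 and 199 against 95.5 and 95.6 CPM at 2.5 to 3 h. It rose by 1.94 ± 0.18, 2.20 ± 0.19 and 0.81 ± 0.17 (edgeR adjusted p = 1.91e-07, 8.81e-08 and 0.000646), and the groups were apart at all 3 times. Psi28S-291 was at 2514 and 2295 against 702 and 667 CPM, at 1909 and 1912 against 560 and 591 CPM, and at 1564 and 2418 against 1064 and 899 CPM. It rose by 1.81 ± 0.17, 1.73 ± 0.17 and 1.02 ± 0.17 (edgeR adjusted p = 3.5e-06, 4.89e-06 and 0.000237). Psi28S-2566, another guide of the large-subunit rRNA, rose by 2.46 ± 0.11, 2.42 ± 0.11 and 1.83 ± 0.10 (7.8e-13, 1.31e-12 and 1.18e-11). All of these calls were kept without any 1 library.

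MeU5-C46 was at 288 and 218 CPM in the knockdown against 44.2 and 45.9 CPM at 0 to 0.5 h and at 157 and 185 against 54.04 and 57.3 CPM at 1 to 1.5 h, rises of 2.49 ± 0.14 and 1.62 ± 0.14 (edgeR adjusted p = 3.07e-11 and 4.33e-09). At 2.5 to 3 h it was at 195 and 219 against 147 and 155 CPM, with groups still apart. There the rise was 0.46 ± 0.12 (edgeR adjusted p = 0.00282), and the call was lost with total counts (0.10, adjusted p = 0.46), with RLE size factors, with DESeq2 and without knockdown library 2. PsiU1-6 and PsiU2-55 rose at 0 to 0.5 h by 1.60 and 1.69 (edgeR adjusted p = 0.00485 and 0.000647) and at 1 to 1.5 h by 1.73 and 1.82 (0.00465 and 0.00145), and at 2.5 to 3 h were at 0.82 and 0.73 and not called. PsiU1-6 was not called without wild type library 1 at 0 to 0.5 h (0.94, adjusted p = 0.13) and at 1 to 1.5 h (1.43, adjusted p = 0.071), or with total counts at 0 to 0.5 h (0.97, adjusted p = 0.071).

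The rows without an rRNA target in their name rose too. CG32479-b was at 124 and 117 CPM against 13.01 and 13.5 CPM at 0 to 0.5 h, at 96.3 and 101 against 7.72 and 15.4 CPM at 1 to 1.5 h and at 81.5 and 113 against 31.9 and 27.9 CPM at 2.5 to 3 h, rises of 3.18 ± 0.21, 3.10 ± 0.22 and 1.69 ± 0.18 (edgeR adjusted p = 4.17e-10, 7.52e-10 and 1.87e-07). Or-aca4 was at 104 and 85.7 against 13.3 and 11.7 CPM, at 64.0 and 74.1 against 6.75 and 8.19 CPM and at 61.6 and 110 against 12.2 and 11.3 CPM. It rose by 2.92 ± 0.29, 3.21 ± 0.32 and 2.85 ± 0.30 (edgeR adjusted p = 8.86e-07, 9.16e-07 and 1.22e-06). Psi28S-3342 had 47 counts in the knockdown and 0 in wild type at 0 to 0.5 h, at least 5.16-fold higher against a floor of 3 counts over the group (edgeR adjusted p = 0.000185), and 71 against 1 count at 1 to 1.5 h, a ratio of 20.5 (exact 95% counting interval 3.57 to 823). At 2.5 to 3 h it had 3 against 0 counts and was not called. With so few wild type counts, Psi28S-3342 passed the low-count filter only through the knockdown libraries, which are deeper and where it was high. Its adjusted p is therefore no support for the rise. Psi28S-3342 was at 0 in 46 of the 60 embryo libraries. Psi28S-2648 rose by 3.46 ± 0.58 and 2.77 ± 0.54 (edgeR adjusted p = 3e-05 and 0.000131), and at 2.5 to 3 h had 108 against 3 counts, a ratio of 9.91 (exact 95% counting interval 3.30 to 48.8).

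**Figure D4:**
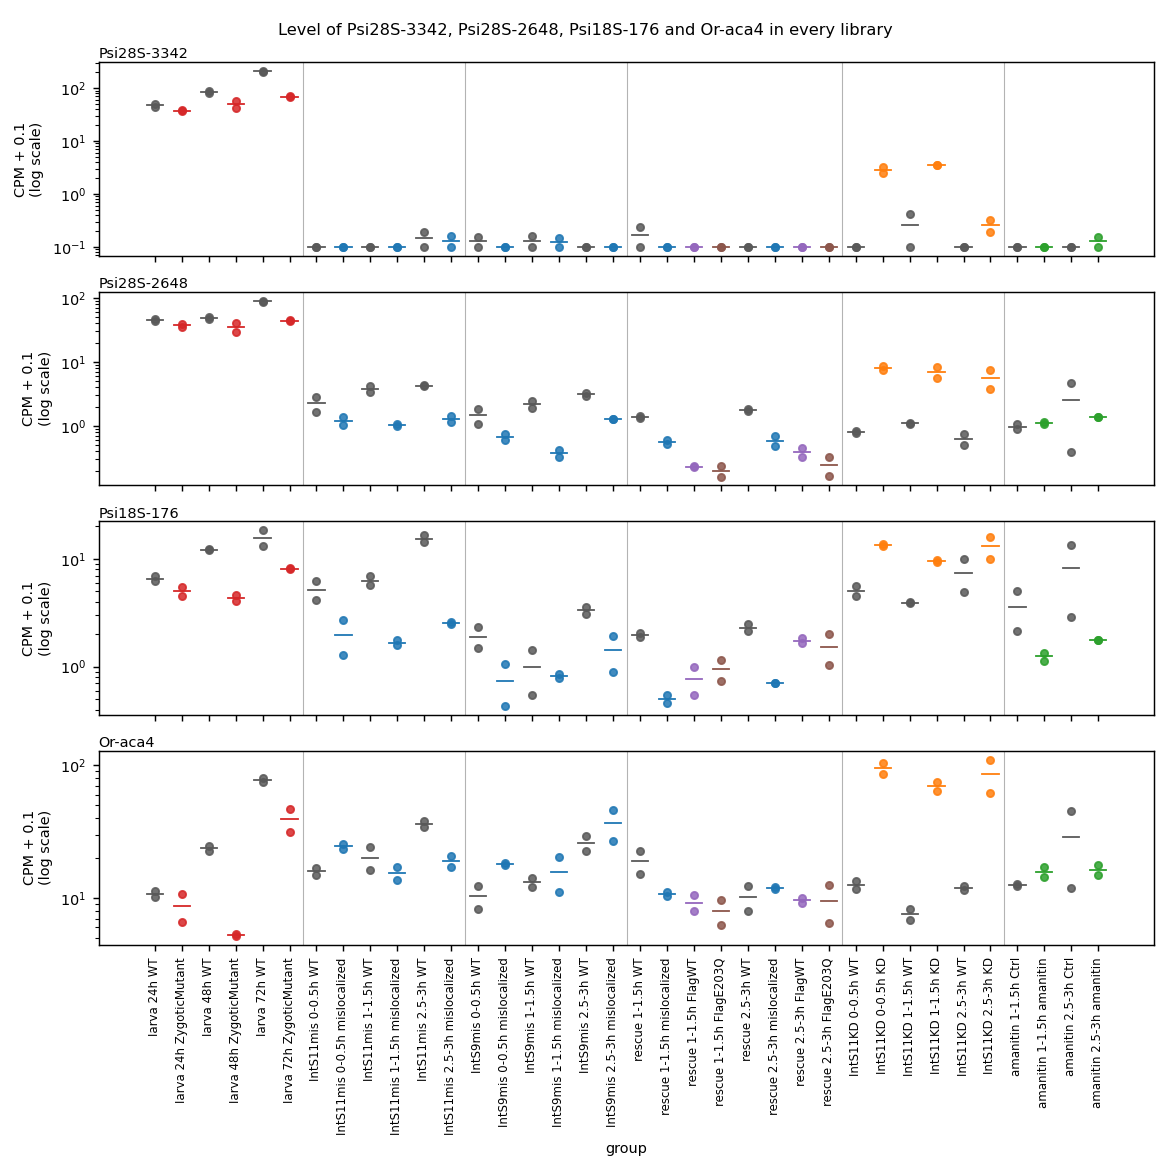
Level of Psi28S-3342, Psi28S-2648, Psi18S-176 and Or-aca4 in every library (CPM plus 0.1, log axis), by group and experiment, with points for libraries and a line for the mean of each group. These 4 RNAs were chosen for the plot after their values were seen. Psi28S-3342 lies between 37.2 and 211 CPM in larvae and at or near 0 in most embryo libraries.

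The knockdown and IntS11 mislocalization changes were compared as a difference in 1 joint fit of both experiments, which does not test whether the directions were opposite. Or-aca4 at 0 to 0.5 h was called higher in both experiments and still differed, by 1.89 ± 0.36 (edgeR adjusted p = 0.000215). The knockdown change was higher than the IntS11 mislocalization change for 18 of 27 rows at 0 to 0.5 h (19.5% of all genes), 24 of 27 at 1 to 1.5 h (22.8%) and 21 of 27 at 2.5 to 3 h (29.2%), and lower for none. The medians of the difference were 1.89, 3.08 and 1.82. U3:54Aa differed by 1.77 ± 0.36, 3.08 ± 0.37 and 1.77 ± 0.34 (edgeR adjusted p = 0.000627, 4.08e-06 and 0.000391) and MeU5-C46 by 2.43 ± 0.24, 2.06 ± 0.23 and 1.41 ± 0.21 (4.78e-08, 1.92e-07 and 1.13e-05). The 2 experiments have separate wild types, and experiment and treatment cannot be told apart in this difference. Leaving out 1 library gave 14 to 19, 22 to 24 and 18 to 22 rows.

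After alpha-amanitin the scaRNA MeU5-C46 was lower at both times. At 1 to 1.5 h 1 of 20 rows fell (17.9% of all genes were called lower) and none rose (15.6%), and at 2.5 to 3 h 9 fell (49.7%) and none rose (40.0%). The medians were 0.02 and -1.08. MeU5-C46 was at 34.7 and 26.8 CPM after alpha-amanitin against 49.1 and 58.4 CPM in controls at 1 to 1.5 h, and at 30.7 and 31.5 against 185 and 180 CPM at 2.5 to 3 h. It was the row called at the first time, at -0.80 ± 0.11 (edgeR adjusted p = 0.00038), and fell by 2.55 ± 0.11 on the log2 scale at the second (6.21e-10), with groups apart. The change differed between the times by -1.75 ± 0.16 (edgeR adjusted p = 1.08e-06), as it did for 3 of 20 rows (34.7% of all genes). PsiU1-6 was at 1.63 and 0.859 against 5.42 and 2.01 CPM at 2.5 to 3 h, a fall of 1.65 ± 0.44 on the log2 scale (edgeR adjusted p = 0.00443) that was not called without control library 1 (-0.70, adjusted p = 0.15). CG32479-a fell by 1.15 ± 0.18 (0.00024).

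The control libraries of 2.5 to 3 h stood apart from each other. U3:54Aa was at 107 and 14.9 CPM in the controls and at 35.5 and 39.0 CPM after alpha-amanitin, between the control libraries. The summed level of the rows was 2486 and 1250 CPM in the 2 controls. Without control library 1 the calls were 8 higher and 5 lower, without control library 2 20 lower and none higher, and without either alpha-amanitin library 5, and the difference between the times was called for 7 and 18 rows without each of these control libraries. MeU5-C46 kept both calls without any 1 library. The 7SL share was 7.33 and 4.21% in these controls, and fragments measured 232 to 235 bases after alpha-amanitin against 214 to 222 in controls at both times. Their part was not tested.

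In the rescue experiment the mislocalized group had more rows called lower than higher against wild type. With the effective-length offset this did not hold at 1 to 1.5 h, as given below. At 1 to 1.5 h 9 of 20 rows fell (18.7% of all genes were called lower) and 2 rose (34.7%), and at 2.5 to 3 h 11 of 20 fell (41.1%) and none rose (40.8%), with medians of -0.76 and -0.60 against 0.10 and 0.00 for all genes. U3:54Aa was at 38.6 and 46.4 CPM in wild type against 17.7 and 21.9 CPM at 1 to 1.5 h and at 40.3 and 39.6 against 21.2 and 17.6 CPM at 2.5 to 3 h, falls of 1.11 ± 0.16 and 1.04 ± 0.16 on the log2 scale (edgeR adjusted p = 4.61e-05 and 2.52e-05). The groups were apart at both times. Wild type fragments at 1 to 1.5 h measured 216 and 202 bases and mislocalized fragments 228 and 225. With effective lengths as an offset 3 rows rose and 1 fell at 1 to 1.5 h, and the values were -0.20 for U3:54Aa (adjusted p = 0.18), -0.10 for U3:9B, -0.19 for Psi28S-291 and 0.017 for PsiU2-55, none of them called. With the offset, which was fitted on fewer rows, 7 rows fell at 2.5 to 3 h. The 2 rises at 1 to 1.5 h, MeU5-C46 at 0.46 ± 0.15 (edgeR adjusted p = 0.0203) and Tudor-SN-a at 0.38 ± 0.13 (0.032), were not called with RLE size factors or with total counts. MeU5-C46 then fell at 2.5 to 3 h, at 78.9 and 96.3 CPM in wild type against 48.7 and 53.3 CPM, by 0.78 ± 0.13 on the log2 scale (edgeR adjusted p = 0.000108).

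The Flag groups were compared with the mislocalized group, whose libraries serve in both comparisons, and with each other. At 1 to 1.5 h FlagIntS11WT had 1 of 20 rows higher (10.2% of all genes were called higher) and none lower (14.0%) than the mislocalized group, with 3 at an unadjusted p under 0.05, and FlagIntS11E203Q had 1 lower (26.5%) and none higher (17.2%), with 6 at an unadjusted p under 0.05. At 2.5 to 3 h FlagIntS11WT had 7 higher (39.1%) and none lower (39.3%), and FlagIntS11E203Q had 2 higher (25.5%) and 1 lower (28.0%). Against FlagIntS11E203Q, FlagIntS11WT had 5 rows higher at 1 to 1.5 h (26.2%) and 4 higher at 2.5 to 3 h (37.7%), and none lower (19.4 and 37.4%). The medians of these direct comparisons were 0.41 and 0.29.

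CG32479-b was the row with a call in every comparison of FlagIntS11WT that did not hang on a single library. At 1 to 1.5 h it was at 17.1 and 22.5 CPM in wild type, 10.3 and 11.2 CPM in the mislocalized group, 16.6 and 16.3 CPM with FlagIntS11WT and 10.6 and 9.79 CPM with FlagIntS11E203Q. At 2.5 to 3 h it was at 24.5 and 27.2, 12.9 and 14.0, 19.9 and 21.7, and 12.7 and 15.96 CPM in the same order. The FlagIntS11WT libraries lay above both others at both times, by 0.62 ± 0.13 and 0.63 ± 0.12 over the mislocalized group (edgeR adjusted p = 0.000912 and 7.05e-05) and by 0.69 ± 0.13 and 0.54 ± 0.12 over FlagIntS11E203Q (0.000204 and 0.000442). MeU5-C46 at 2.5 to 3 h was at 79.9 and 81.2 CPM with FlagIntS11WT and 49.9 and 56.4 CPM with FlagIntS11E203Q, against 48.7 and 53.3 CPM in the mislocalized group. It was higher with FlagIntS11WT by 0.66 ± 0.13 and 0.60 ± 0.13 (edgeR adjusted p = 0.000509 and 0.00114), while E203Q and mislocalized libraries overlapped. Psi18S-176 at 2.5 to 3 h was at 0.6003 and 0.599 CPM in the mislocalized group, 1.73 and 1.54 CPM with FlagIntS11WT and 0.945 and 1.90 CPM with FlagIntS11E203Q, rises of 1.44 ± 0.38 and 1.21 ± 0.38 (edgeR adjusted p = 0.00149 and 0.00974). The second was not called without E203Q library 2 (0.65, adjusted p = 0.26).

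U3:54Aa was at 26.0 and 30.5 CPM with FlagIntS11WT and 16.1 and 21.4 CPM with FlagIntS11E203Q at 2.5 to 3 h. The first was 0.54 ± 0.16 above the mislocalized group (edgeR adjusted p = 0.00725), which was 0.21 (adjusted p = 0.13) with the effective-length offset and was not called without mislocalized library 2 (0.42, adjusted p = 0.062) or FlagIntS11WT library 2. Its value over FlagIntS11E203Q was 0.63 ± 0.17 at 1 to 1.5 h and 0.60 ± 0.16 at 2.5 to 3 h (edgeR adjusted p = 0.00976 and 0.00472), not called without either FlagIntS11WT library or E203Q library 1 at the first time and without E203Q library 1 at the second. Leaving out 1 library gave 1 to 3 rows called for FlagIntS11WT against the mislocalized group at 1 to 1.5 h (3 without FlagIntS11WT library 1), 1 to 4 for FlagIntS11E203Q (4 without its library 2), and 1 to 8 and 3 to 8 for the direct comparisons, both 8 without E203Q library 2.

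The change of a row was set beside that of its host, the gene on the same strand whose interval holds it. Overlap with exons of the host was not used to choose the pairs. Under IntS11 mislocalization at 2.5 to 3 h 17 of 19 tested pairs had the same sign and 14 were both called lower, with 53.2% of all genes called lower. CG32479-a and CG32479-b, at -1.42 ± 0.16 and -1.495 ± 0.14, were the pairs of opposite sign, and the host they share, Usp10 (CG32479), was at 0.19 ± 0.13 and was not called (edgeR adjusted p = 0.184). MeU5-C46 and its host CG1142 were at -1.59 ± 0.15 and -1.58 ± 0.14, PsiU1-6 and dmt at -1.34 and -1.18, and Psi28S-291 and RpL3 at -0.99 and -0.63. At 1 to 1.5 h 11 of 19 pairs had the same sign, 6 were both called lower and 4 were called in opposite directions. These 4 were PsiU1-6 and dmt (-1.34 and 0.44), PsiU2-55 and Prp8 (-1.14 and 0.53), and CG32479-a and CG32479-b (-0.93 and -0.94) with Usp10 (0.47). The shares of all genes called at that time are given above. In the knockdown 7, 8 and 8 of 17 pairs moved in opposite directions with both called at the 3 times, each with the row higher and the host lower. In 7, 6 and 3 pairs row and host were both called higher. Beside these counts stand the 29.6, 31.0 and 36.0% of all genes called lower there and the 39.5, 41.7 and 39.7% called higher. In the window of 1 to 1.5 h MeU5-C46 rose by 1.62 ± 0.14 while CG1142 fell by 1.51 ± 0.25, PsiU1-6 rose by 1.73 while dmt fell by 1.89, and Tudor-SN-a rose by 1.87 while Tudor-SN, a nuclease of the RNA silencing complex, fell by 0.58. CG32479-a and CG32479-b rose by 1.84 and 3.10 while Usp10 fell by 0.96. The other 3 such pairs were Psi18S-531 and RpL22 (-0.79), Psi28S-3378 and dom (-1.11), and lola-b and lola (-0.85). With total counts the rises of Psi18S-531 (1.34, adjusted p = 0.064) and lola-b (1.91, adjusted p = 0.08) were not called. In larvae at 72 h 16 of 20 pairs were both called lower (30.6% of all genes were called lower), and Psi28S-2566 fell by 1.01 while CG3902 rose by 0.76. Psi28S-291 fell by 1.22 there, and RpL3 did not pass the test, at -0.00 ± 0.06. The pairs are a description, since both values come from the same libraries, and a host that holds several rows, such as RpS5a, is counted once for each row.

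**Figure D5:**
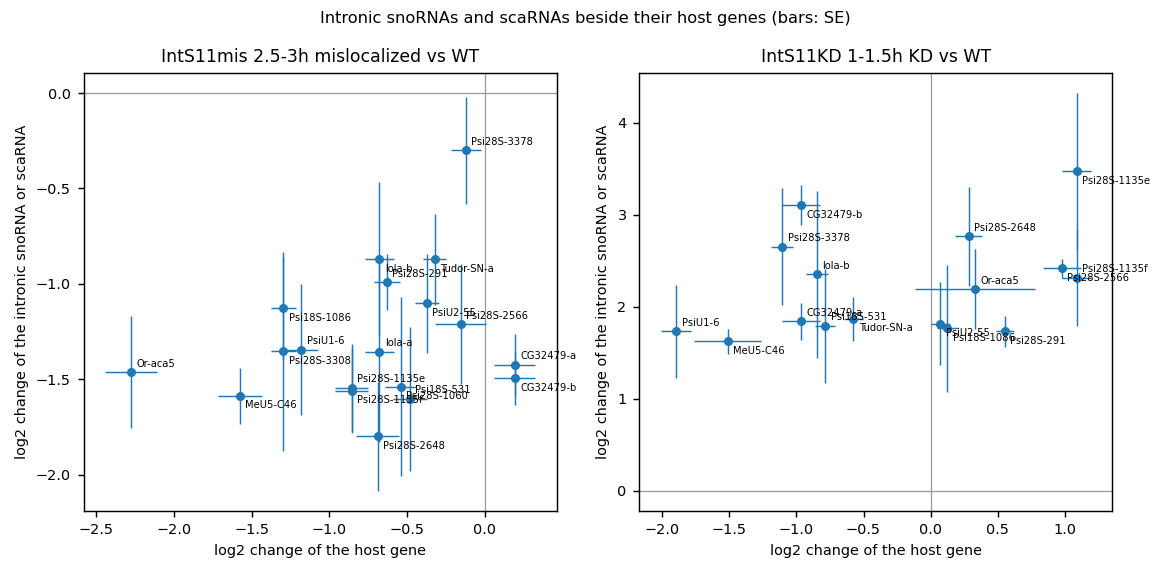
Log2 change of each snoRNA or scaRNA row (vertical axis) against that of its host gene (horizontal axis) in IntS11 mislocalized embryos at 2.5 to 3 h (left) and in knockdown embryos at 1 to 1.5 h (right), with bars for SE. Of the 19 points on the left 17 lie in the lower left quadrant and the other two, CG32479-a and CG32479-b, to the right of it, and on the right all points lie above 0 on both sides of the vertical axis. Psi28S-1060, with 0 counts in wild type on the right, is left out.

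The proteins of the pathway were read from fixed lists. Under IntS11 mislocalization at 2.5 to 3 h 4 of 4 box C/D core proteins fell: the methylase Fib at -1.12, nop5 at -0.87, Nop56 at -0.65 and hoip at -3.54. Of the box H/ACA core 3 of 4 fell, among them NHP2 at -1.15 and CG7637 (Nop10) at -1.33, while the pseudouridine synthase Nop60B was at -0.04 and was not called. All 7 assembly and Cajal body genes and all 12 genes of RNA trimming and decay fell too, as did 5 of 6 noncoding snoRNA host genes (Uhg1 at -4.85 and Uhg5 at -5.51) and U3-55K, a protein of the U3 particle, at -3.14 ± 0.14. The background of 53.2% lower calls stands beside all of these. The list medians were -0.99, -0.86, -0.38, -1.22 and -2.57 for the 2 cores, assembly, trimming and noncoding hosts, beside the shift of 0.36 that total counts gave all genes and the all-gene median of -0.38. In the knockdown at 0 to 0.5 h 4 of 4 box C/D core genes, 3 of 4 box H/ACA core genes and 9 of 12 trimming and decay genes rose, beside 39.5% of all genes called higher. Of the 7 assembly and Cajal body genes 4 rose and 2 fell, 1 trimming and decay gene fell, and of 5 tested noncoding hosts 1 rose and 1 fell, beside 29.6% of all genes called lower. The medians were 1.06, 0.34, 0.93, 0.77 and 0.26 for the cores, trimming, assembly and hosts, and the total-count shift of -0.62 exceeds that of the box H/ACA core and of the hosts. FlagIntS11WT was above FlagIntS11E203Q at 2.5 to 3 h for 4 of 4, 4 of 4, 7 of 7 and 11 of 12 genes of these protein lists, for 5 of 6 noncoding hosts and for U3-55K, at 2.40, beside 37.7% of all genes called higher.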

How the data were processed

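The authors deposited 1 table per library with RSEM expected counts, TPM and FPKM per gene. Per the submitters' processing notes the tools were Trimmomatic 0.39, STAR 2.7.10a, RSEM 1.3.1 and DESeq2 1.40.2 with build dm6. The deposited expected counts are estimated reads per gene, not normalized, and were rounded to whole numbers. The deposited TPM and FPKM values, scaled by the authors for length and depth, were not used. Deposited lengths and effective lengths in bases served to describe the rows. Each experiment had a fit of its own, in edgeR 4.0.16 under R 4.3.3, with a mean for every group. Library sizes were scaled with TMM, low genes were removed with filterByExpr, and robust quasi-likelihood F tests were adjusted by Benjamini-Hochberg over every gene that passed. Each SE was obtained by dividing the size of the log2 change by the square root of F. Counting intervals are exact binomial at 95% and cover counting error only. On data simulated for IntS11 mislocalization at 2.5 to 3 h (8234 genes) the fit recovered 88.9% of 2-fold changes with 2.42% false calls, and for the knockdown at 2.5 to 3 h (8800 genes) 73.8% with 5.34%. In the simulations few genes were changed, up and down in equal share, unlike in the real comparisons. These percentages therefore do not measure errors of scaling in the real data. Alternatives were RLE scaling, total counts, no filter, a replicate block, leaving out each library and DESeq2 1.42.0. The offset of effective lengths, the tests of differences and the length classes were added after seeing the data. Named rows are the 12 with the highest mean CPM, every described scaRNA and U-numbered row, and up to 6 called rises and falls per comparison, and copies that moved oppositely. The members and all lists were chosen with earlier results of these data known. Host genes and positions are from the Ensembl BDGP6.54 annotation, which has dm6 coordinates, and symbols the tables hold under an older name were matched through the RefSeq table's synonyms.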

Additional observations from a re-analysis of the deposited data

Results flagged for a closer look

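The results below are tests of whether an effect differed between times or between experiments, each with edgeR's quasi-likelihood test. The effect of IntS11 mislocalization was lower at 1 to 1.5 h than at 0 to 0.5 h for 10 rows and lower at 2.5 to 3 h for 14 rows, of 24 tested, with 7.22 and 42.3% of all genes called lower. Leaving out 1 library gave 1 to 12 rows for the first, 1 without wild type library 1 of 1 to 1.5 h or wild type library 2 of 0 to 0.5 h, and 12 to 16 for the second. The effect in zygotic mutant larvae was lower at 48 h than at 24 h for 7 rows and at 72 h for 16 rows, of 26 (5.71 and 23.1% of all genes), and without 1 library 2 to 8 and 9 to 18 rows were called, as few as 2 without mutant library 2 of 48 h and 9 without mutant library 1 of 24 h. The effect of alpha-amanitin was lower at 2.5 to 3 h than at 1 to 1.5 h for 3 rows of 20 (34.7% of all genes), and 7 and 18 rows were called in either direction without control library 1 and without control library 2 of 2.5 to 3 h. The knockdown effect exceeded that of IntS11 mislocalization for 18, 24 and 21 rows of 27 at 0 to 0.5, 1 to 1.5 and 2.5 to 3 h (19.5, 22.8 and 29.2% of all genes). Depth, fragment length, the 7SL share and the level of 8 larval RNAs (1090 and 1337 CPM in the knockdown against 22.1 and 21.1 CPM at 2.5 to 3 h) differed between the knockdown libraries and their wild type, and their part in these differences was not tested.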

How the results depend on the processing

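Counts of called rows stayed within 1.5 times under DESeq2 for 31 of 37 comparisons and difference tests, under RLE size factors, total counts and the replicate block for 35 each, without a filter for 27 and with the effective-length offset, added after seeing the data and fitted on fewer rows, for 19. A lower count under the offset can therefore come from rows not fitted. In mutant larvae at 72 h all 15 rows fitted were called. The offset gave 0, 8 and 15 rows in mutant larvae at 24, 48 and 72 h, 11 and 12 under IntS11 mislocalization at 1 to 1.5 and 2.5 to 3 h, 5 under IntS9 mislocalization at 0 to 0.5 h, and 4 after alpha-amanitin at 2.5 to 3 h. In the rescue experiment it gave 4 and 7 for mislocalized against wild type at 1 to 1.5 and 2.5 to 3 h, 3 for FlagIntS11E203Q at 1 to 1.5 h and 4 for FlagIntS11WT at 2.5 to 3 h, both against mislocalized. Over time in wild type it gave 7 in the IntS11 mislocalization experiment, 11 in the rescue experiment and 14 from 48 to 72 h in larvae, and among the differences 3 and 6 for IntS11 mislocalization, 4 for larvae at 48 h and 14 for knockdown minus mislocalization at 1 to 1.5 h. Without a filter there were 9 for IntS11 mislocalization at 0 to 0.5 h, 10, 13 and 15 for IntS9 mislocalization, 15 and 23 for alpha-amanitin, 4 for FlagIntS11WT and 5 for FlagIntS11E203Q against mislocalized at 1 to 1.5 h, 21 for the alpha-amanitin controls over time and 16 for the alpha-amanitin difference. DESeq2 gave 4 in larvae at 24 h, 2 for IntS11 and 5 for IntS9 mislocalization at 0 to 0.5 h, 10 for the knockdown at 2.5 to 3 h, 0 for FlagIntS11E203Q against mislocalized at 1 to 1.5 h and 12 for the alpha-amanitin controls over time. RLE gave 12 for the knockdown at 2.5 to 3 h and 2 for FlagIntS11WT against mislocalized at 1 to 1.5 h, and total counts gave 11 for that knockdown and 3 for FlagIntS11WT against FlagIntS11E203Q at 1 to 1.5 h. The replicate numbers name no shared origin, same-numbered deviations correlated between -0.159 and 0.177, and the replicate block gave 2 for FlagIntS11WT and 4 for FlagIntS11E203Q against mislocalized at 1 to 1.5 h and moved no other count by over 1.5 times. Leaving out 1 library gave 0 to 2, 9 to 11 and 21 to 25 rows in mutant larvae, 2 to 4, 13 to 19 and 18 to 22 for IntS11 mislocalization, 0 to 4, 2 to 6 and 5 to 13 for IntS9 mislocalization, 17 to 22, 20 to 22 and 12 to 21 for the knockdown, and 1 and 5 to 20 for alpha-amanitin. In the rescue experiment it gave 7 to 12, 1 to 3, 1 to 4 and 1 to 8 at 1 to 1.5 h and 9 to 11, 5 to 7, 2 to 4 and 3 to 8 at 2.5 to 3 h, for mislocalized against wild type, FlagIntS11WT and FlagIntS11E203Q against mislocalized, and FlagIntS11WT against FlagIntS11E203Q. Over time it gave 7 to 15, 7 to 8, 9 to 12, 5 to 20 and 4 to 5 in embryos and 8 to 9 and 21 to 23 in larvae, and for the differences 1 to 12, 12 to 16, 2 to 8, 9 to 18, 3 to 18, 14 to 19, 22 to 24 and 18 to 22. Of 308 called values of named rows 295 kept their call under RLE, 266 under DESeq2 and under total counts, and 298 without a filter and with the replicate block. Of 220 fitted with the offset 193 did, and PsiU2-55 in mislocalized against wild type at 1 to 1.5 h changed sign, to 0.017. Psi18S-531 and Psi28S-3378 changed sign after alpha-amanitin at 2.5 to 3 h without control library 1, to 0.89 and 0.18, and ranged down to -4.61 and -1.65 without other libraries. The cause of these changes was not tested. Totals of 2061575 to 2590455 counts in the knockdown's wild type and row lengths under the fragment length limit what could be called.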
